A study of Mus musculus with 4 samples.

Results

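Insulin signalling and glucose transport were described at 10 mouse genes, namely the receptors Insr and Igf1r, the adaptors Irs1 and Irs2, the signalling genes Pik3r1 and Akt2, the Akt substrates Tbc1d4 and Foxo1, and the glucose transporters Slc2a1 and Slc2a4. Open chromatin was read from ATAC-seq, in which the Tn5 transposase cuts accessible DNA and the pile of sequenced tags is called as a peak. All peaks of the 4 deposited lists with a summit within 50 kb of any annotated transcription start site (TSS) of these genes were taken, 376 peaks in all. Joined where they overlapped, the peaks gave 148 sites, out of 82944 sites that lay equally near to any annotated gene. Below, a site is named by its gene and by the distance in kb from the 5′-most TSS, negative when upstream. Where 4 pileups are given in a row they stand for WT D0, WT D8, HY D0 and HY D8 (defined below), and a pair given for 1 day stands for WT and HY. Of the 148 sites, 97 had a TSS of the gene itself as the nearest one, and 16 lay only at the promoter of another gene. All coordinates are on the mm9 build.

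The cells were im-scWAT cells, stromal vascular cells of mouse subcutaneous white adipose tissue immortalised with a retrovirus that carries the SV40 large T antigen. They came from 5-week-old mice that were either Jmjd1a +/+ (WT) or Jmjd1a HY/HY (HY), a knock-in that exchanges a histidine for a tyrosine in the histone H3 lysine 9 demethylase JMJD1A and leaves it without catalytic activity. Libraries were made before differentiation (D0) and after it (D8), and all 4 share the immortalisation. The D8 cells of both genotypes had 2 days of indomethacin, dexamethasone, 3-isobutyl-1-methylxanthine, rosiglitazone, insulin and T3, then 6 days of insulin, T3 and rosiglitazone, so that they were cultured with insulin itself while D0 cells had not been induced. Each group was 1 library and each genotype 1 culture. No difference has a replicate check, allele and culture cannot be told apart, and every interval given covers counting error only.

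Insulin and insulin-like growth factor bind receptor tyrosine kinases that phosphorylate IRS proteins. These recruit phosphoinositide 3-kinase, whose lipid product brings AKT to the membrane. In fat cells AKT2 acts on TBC1D4, a Rab GTPase-activating protein that otherwise holds back vesicles loaded with GLUT4 (Slc2a4), and AKT also keeps the transcription factor FOXO1 out of the nucleus. GLUT4 appears with fat cell differentiation and answers to insulin, whereas GLUT1 (Slc2a1) serves basal uptake in many cell types.

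Among the best supported sites that opened or closed, those below lay away from any TSS of the 10 genes, and 5 are shown as examples of sites with and without a motif match. Each is 201 bases of the mm9 reference on the plus strand, 100 bases on either side of the summit, with motif matches in capitals. The first 3 had a peak at D8 in both genotypes and none at D0, and the last 2 the reverse. The capitals are C/EBP matches (TTGCNNAA) at Tbc1d4, an EBF match (CCCNNGGG) at Irs2 +17.5 kb, and AP-1 matches (TGANTCA) at the closed sites. Slc2a4 +10.5 kb, the opened site nearest to the gene of the insulin-responsive transporter, held no match. At their WT D0 summits only 3 of the 24 closed sites held an AP-1 match, so the printed closed sites are the exception among them. Many well supported sites held no match either and are not printed, among them the opened sites Insr -9.1 kb, Pik3r1 +77.9 kb and Slc2a1 -9.9 kb and the closed sites Insr +70.1 kb, Igf1r +15.7 kb and Pik3r1 +38.3 kb.
Tbc1d4 +91.2 kb, opened (chr14:101917155-101917355): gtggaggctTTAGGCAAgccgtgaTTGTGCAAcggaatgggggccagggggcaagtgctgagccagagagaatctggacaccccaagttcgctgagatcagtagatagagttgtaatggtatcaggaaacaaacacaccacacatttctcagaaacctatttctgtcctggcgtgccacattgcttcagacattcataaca
Irs2 +17.5 kb, opened (chr8:10990851-10991051): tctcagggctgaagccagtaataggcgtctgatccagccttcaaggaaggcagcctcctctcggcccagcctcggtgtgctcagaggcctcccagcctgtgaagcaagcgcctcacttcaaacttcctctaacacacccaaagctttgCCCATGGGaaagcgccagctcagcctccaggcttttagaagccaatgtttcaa
Slc2a4 +10.5 kb, opened (chr11:69751008-69751208): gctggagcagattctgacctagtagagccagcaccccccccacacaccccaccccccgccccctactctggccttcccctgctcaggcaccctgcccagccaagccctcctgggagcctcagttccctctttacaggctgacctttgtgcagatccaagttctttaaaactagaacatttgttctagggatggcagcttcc
Irs2 +30.6 kb, closed (chr8:10977783-10977983): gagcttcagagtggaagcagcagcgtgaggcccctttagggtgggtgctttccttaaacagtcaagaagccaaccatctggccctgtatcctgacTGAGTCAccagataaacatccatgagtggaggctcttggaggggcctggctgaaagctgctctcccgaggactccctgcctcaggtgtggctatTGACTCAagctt
Slc2a1 -41.3 kb, closed (chr4:118739953-118740153): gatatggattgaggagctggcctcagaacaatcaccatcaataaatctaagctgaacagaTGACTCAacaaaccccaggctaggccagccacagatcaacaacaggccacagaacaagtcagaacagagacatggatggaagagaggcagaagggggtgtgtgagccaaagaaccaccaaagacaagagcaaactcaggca

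The WT lists held 71523 peaks at D0 and 41228 at D8, and the HY lists 77994 and 48964. The genome-wide background rate, which follows the number of tags used, was 0.806 times as high at D8 as at D0 in WT and 0.698 times in HY, so that the D0 libraries were the deeper ones. It was 1.07 times as high in HY as in WT at D0 and 0.931 times at D8. The labelled state was checked at promoters (from 1000 bp upstream to 100 bp downstream of a TSS). Adipocyte markers (Adipoq, Plin1, Fabp4, Cidec, Cd36, Lpl, Pparg and Cebpa) had a promoter peak for 3 of 8 genes in each D0 list and for 8 of 8 in each D8 list. Of 6 preadipocyte markers, 6 had one in WT D0, 4 in HY D0 and 1 in each D8 list. Of 4 beige markers, Elovl3 had one in all 4 lists, Cidea had one in HY D0 (7) and in both D8 lists (9 and 13), and Ucp1 and Dio2 had none in any list. No list had a promoter peak for any of 4 macrophage markers, 1 muscle marker of 4 (Acta1) had one in WT D8, and of 4 endothelial markers Tek and Kdr had one in both D0 lists, Pecam1 in WT D0 (9) and Kdr in HY D8 (4). The part of such differences between the cultures in what follows was not tested.

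Which sites near these genes opened or closed with differentiation was asked first. A site was called opened when it had a D8 peak and no D0 peak, and closed when it had a D0 peak and no D8 peak. A site that is open in fewer cells and one that is less open in every cell cannot be told apart in such data. In WT, 26 of 116 sites with a peak on either day opened, which is 22.4% (15.2% to 31.1%, exact 95% binomial interval, which counts neighbouring sites as independent), beside 12.3% of the sites near any gene. In HY, 33 of 134 sites opened, 24.6% (17.6% to 32.8%), beside 13.7%. Closed sites made up 39 of 116 in WT, 33.6% (25.1% to 43%) beside 49.7%, and 47 of 134 in HY, 35.1% (27% to 43.8%) beside 46.5%. Opened sites were thus a larger share, and closed sites a smaller share, near the 10 genes than near all genes in both genotypes.

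The order of opened and closed sites depended on how long the lists were. With the 4 lists limited to an equal 41228 of their best supported peaks, 40% of the sites near the 10 genes opened and 14.4% closed in WT, and 41.2% opened and 15.5% closed in HY, beside 25.6%, 28.6%, 25.2% and 27.4% near all genes. With sites within 20 kb only, 28.8% opened and 27.1% closed in WT, beside 12% and 46% near all genes. The order did not turn in HY at that distance, with 27.3% opened and 34.8% closed beside 13.2% and 43.6%. When a peak had to be covered to 50% by a peak of the other list to count as kept, 23.3% opened and 47.4% closed in WT, beside 13.5% and 60.9%. By that rule 28.4% opened and 39.6% closed in HY, beside 14.8% and 59.3%.

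**Figure D1:**
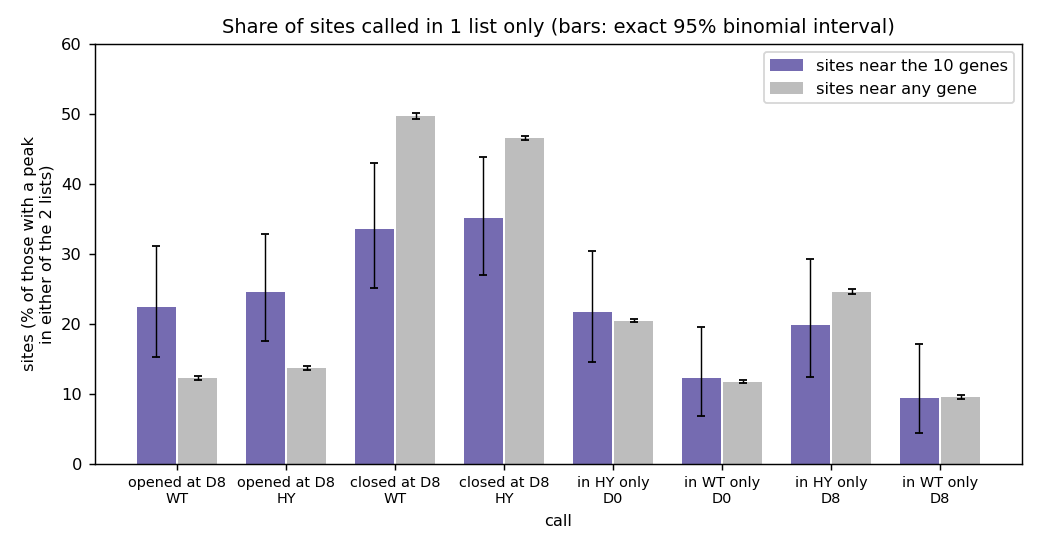
Bars give the percentage of sites called in only one of the 2 lists compared, among sites with a peak in either list, for sites near the 10 genes and for sites near any gene. Error bars are exact 95% binomial intervals. The opened bars of the 10 genes (22.4% and 24.6%) stand above those of all genes (12.3% and 13.7%), and the closed bars (33.6% and 35.1%) below theirs (49.7% and 46.5%).

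Over both genotypes, 18 of 148 sites (12.2%) opened in WT and in HY, beside 6.09% of all sites near genes. Another 24 (16.2%) closed in both, beside 23.3%, and 43 (29.1%) had a peak in all 4 lists, beside 26.8%. The opened sites lay at 7 of the 10 genes, with 5 at Insr, 5 at Akt2, 3 at Tbc1d4, 2 at Pik3r1 and 1 each at Irs2, Slc2a1 and Slc2a4. The closed sites lay at 8 genes, with 7 at Igf1r, 5 at Pik3r1, 3 at Irs2, 3 at Akt2, 2 at Insr, 2 at Irs1, and 1 each at Tbc1d4 and Slc2a1. Igf1r and Irs1 had no site that opened in both genotypes, and Foxo1 had neither kind. Introns held 13 of the 18 opened and 17 of the 24 closed sites (72.2% and 70.8%), beside 57.6% and 51% of such sites near all genes, and 58.1% of the 148 sites beside 47.1% whatever their state.

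**Figure D2:**
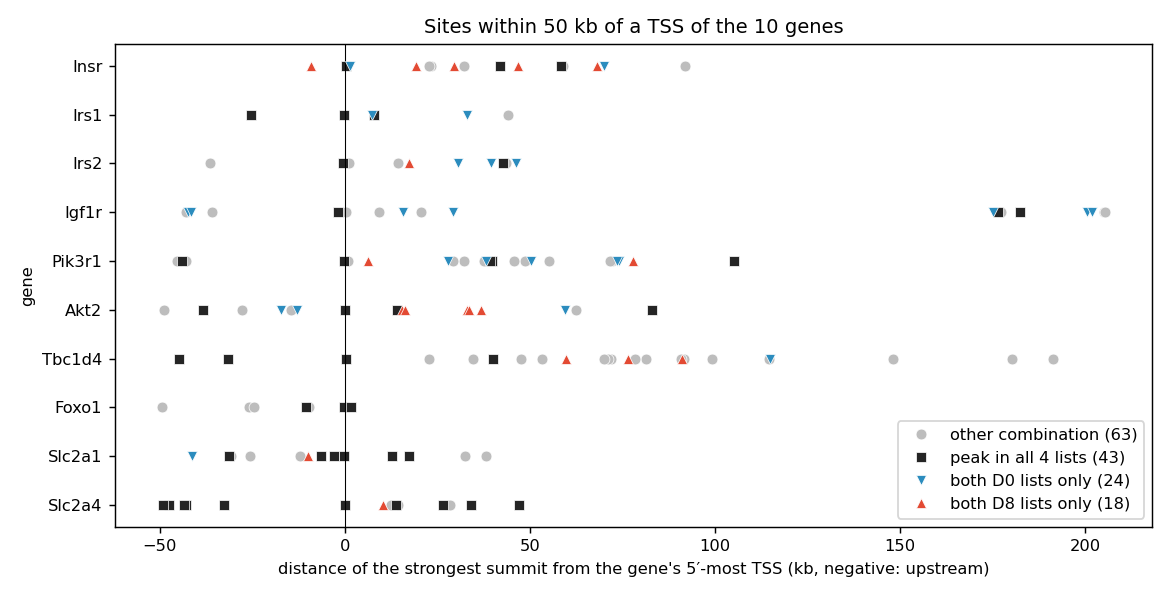
Each mark is 1 of the 148 sites, placed by the distance in kb of its strongest summit from the 5′-most TSS of its gene, with negative values upstream. Upward triangles are the 18 sites with peaks in both D8 lists only, downward triangles the 24 with peaks in both D0 lists only, squares the 43 with peaks in all 4 lists and circles the other 63 combinations. Insr and Akt2 hold 5 upward triangles each, and Igf1r holds 7 downward triangles among its 19 marks.

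At sites with a peak on both days the height was compared as the ratio of summit pileups (the number of overlapping tags at the highest point) divided by the ratio of background rates. None of 51 sites in WT was at least 2-fold higher at D8 (exact upper bound 6.98%), beside 4.39% near all genes, and none was at least 2-fold lower, beside 13.3%. In HY 7 of 54 sites, 13% (5.37% to 24.9%), were at least 2-fold higher, beside 5.08%, and 1, Slc2a1 +38.2 kb, was at least 2-fold lower, 1.85% beside 15.5%. The median log2 ratio was 0.06 in WT and 0.15 in HY, beside -0.14 and -0.15 over all sites near genes. Sites with a peak in all 4 lists had a median of -0.16 in WT and -0.08 in HY, and on a scale centred on these the 10 genes had medians of 0.22 and 0.24.

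A site counted as a promoter site of its gene when a summit of at least 1 list lay in the promoter window. By that rule each of the 10 genes had a promoter site with a peak in all 4 lists. With internal TSSs counted there were 15 promoter sites, of which 11 had a peak in all 4 lists, 3 opened in both genotypes and 1 closed in both. The 3 opened ones were all in Akt2, which held 5 of the 15, and the closed one was in Pik3r1. The same shares over the promoter sites of all genes were not computed. The D0 and D8 summits stood more than 250 bp apart at the promoters of Insr, Igf1r and Slc2a4 in both genotypes and of Akt2 and Tbc1d4 in HY, and the ratios there compare different summits. Pileups at the 5′-most promoters ranged from 30 to 58 in WT D0 and from 17 to 57 in WT D8.

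**Figure D3:**
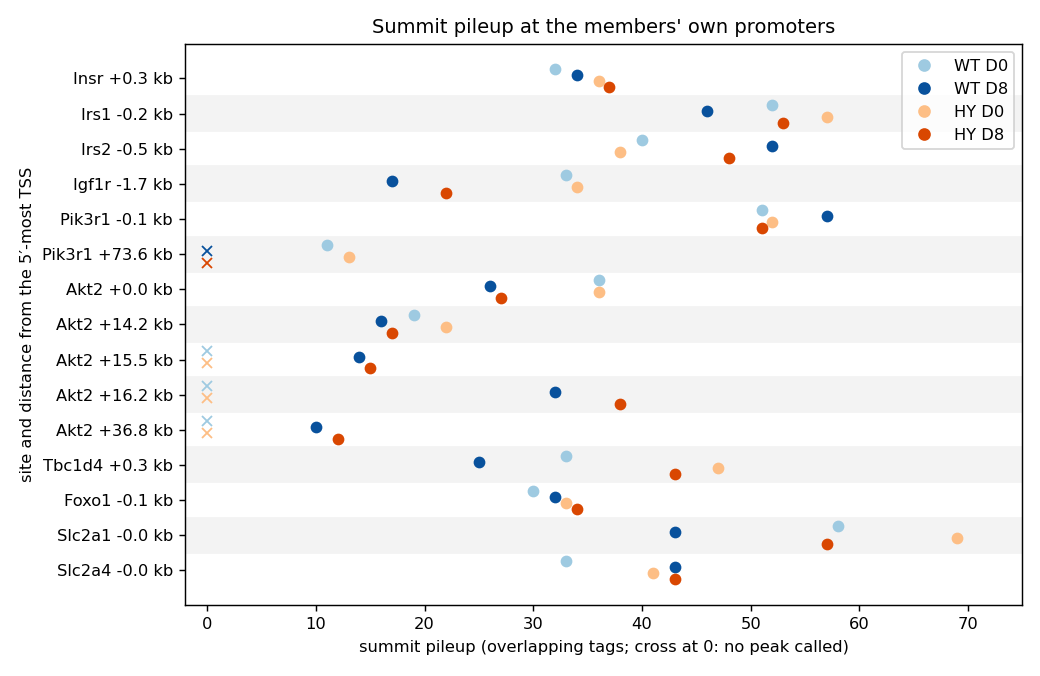
Summit pileup (overlapping tags, not scaled for depth) at the 15 promoter sites of the 10 genes in each of the 4 libraries, with a cross at 0 where no peak was called. The sites at Akt2 +15.5, +16.2 and +36.8 kb have D8 points only, Pik3r1 +73.6 kb has D0 points only, and the other 11 have points in every library.

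Insr encodes the insulin receptor and lies on chromosome 8 on the minus strand, with 15 sites. Its promoter at +0.3 kb (chr8:3279069-3279746) had pileups of 32 at D0 and 34 at D8 in WT cells, and of 36 and 37 in HY cells. The D8 to D0 ratio was 1.32 in WT (0.79 to 2.21) and 1.47 in HY (0.905 to 2.4), so that neither was clear of equality by counting error. The strongest summit was within 21 bp of the TSS at D0 in both genotypes, and at 294 bp downstream in WT and 296 bp in HY at D8.

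The Insr sites that opened in both genotypes were distal. The one best supported in its weaker library lay at -9.1 kb between genes (chr8:3288645-3289001), with no D0 peak and a pileup of 15 at D8 in either genotype. The other 4 were within the gene at +19.2, +29.5, +46.8 and +68.1 kb, with pileups from 7 to 14. The site at +68.1 kb was on a coding exon, that at +19.2 kb on an exon of Gm16180, and the others in introns. Sites at +70.1 kb (11 and 17 at D0) and +1.4 kb (12 and 17 at D0), both intronic, closed in both genotypes. At +42.1 kb WT pileups were 9 and 12 on the 2 days and HY pileups 7 and 13, with ratios of 1.65 (0.64 to 4.45) and 2.66 (0.986 to 7.87). The HY interval was clear of 1 only on the centred scale (1.05 to 8.35).

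Igf1r encodes the receptor for insulin-like growth factor and lies on chromosome 7 with 19 sites, 14 of them in its own introns. In WT 14 sites had a D0 peak and 5 a D8 peak, and in HY 16 and 7, and 10 sites closed and 1 opened in each genotype. Closed sites also outnumbered opened ones near all genes, as given above. Of the 7 sites that closed in both, the best supported was at +15.7 kb (chr7:75113279-75113673), with D0 pileups of 15 (WT) and 25 (HY).

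The Igf1r promoter site (chr7:75095689-75097317) kept peaks in all lists, with 33 and 17 at D0 and D8 in WT, and 34 and 22 in HY. Its strongest summit stood at -1.7 kb at D0 and near -1 kb at D8, so the WT ratio of 0.639 (0.334 to 1.18) and the HY ratio of 0.927 (0.516 to 1.63) compare different summits. At the D8 summit nearest to the D0 one, a comparison chosen after seeing the data, the pileup was 13 against 33 in WT, a ratio of 0.489 (0.236 to 0.954), and 11 against 34 in HY, 0.463 (0.212 to 0.936). On the scale centred on the sites in all 4 lists the upper limits were 1.06 and 0.993, so that the WT interval then held 1. The summit at -0.96 kb in HY D0 had 22, and that at -1.01 kb in HY D8 also had 22. These 2 pileups are not scaled for depth, and the HY background rate at D8 was 0.698 times that at D0. The WT D0 list had a single summit in this site, so no such pair exists in WT.

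Irs1 and Irs2 encode the adaptors that carry the signal from the receptors. Irs1 on chromosome 1 had 6 sites, none opened. Its promoter (chr1:82287096-82288393) had WT pileups of 52 and 46 on the 2 days and HY pileups of 57 and 53, with ratios of 1.1 (0.722 to 1.66) and 1.33 (0.898 to 1.97). The intronic site at +8.0 kb was open in all 4 lists at 37, 32, 49 and 34. A closed neighbour at +7.4 kb had 16 and 18 at D0, and one in the gene's intron about 33 kb from the TSS (chr1:82254931-82255219) had 8 and 11.

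Irs2 on chromosome 8 showed higher pileup at its promoter at D8. The site at -0.5 kb (chr8:11008616-11009809) went from 40 at D0 to 52 at D8 in WT, a ratio of 1.61 (1.05 to 2.5), and from 38 to 48 in HY, a ratio of 1.81 (1.16 to 2.85). On the centred scale the intervals ran from 1.17 to 2.79 and from 1.23 to 3.02. Its intervals lay above 1 in both genotypes on either scale, while that of the Slc2a4 promoter in HY did so only when centred, at 1.01 to 2.51. Within the gene, the intronic site at +17.5 kb (chr8:10990862-10991474) had no D0 peak and D8 pileups of 22 (WT) and 23 (HY). Only 1 of the 10 sites near Irs2 had its TSS as the nearest one.

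The Irs2 locus also held the strongest site closed in both genotypes. The intergenic site at +30.6 kb (chr8:10977578-10978579) had D0 pileups of 29 (WT) and 36 (HY) and no D8 peak, and further closed sites lay at +39.6 kb and +46.2 kb. Close by, the site at +42.8 kb stayed open at 15, 20, 15 and 25, with ratios of 1.65 (0.805 to 3.47) and 2.39 (1.21 to 4.87). The neighbour at +43.5 kb had a peak at WT D0 (14) and HY D8 (17) and none in the other 2 lists. These +30.6 to +46.2 kb sites lie past the 3′ end of Irs2, and the nearest TSS was not that of Irs2 at any of them.

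Pik3r1 encodes the regulatory subunit of phosphoinositide 3-kinase and lies on chromosome 13 with 24 sites, 18 of them intronic. Its main promoter at -0.1 kb (chr13:102537593-102538936) had 51, 57, 52 and 51, and the D8 to D0 ratio was 1.39 (0.934 to 2.07) for WT and 1.4 (0.935 to 2.11) for HY. On the centred scale the WT ratio was 1.55 (1.04 to 2.3), clear of 1, and the HY interval still held 1. Shorter forms of the subunit are known to start at internal promoters. The internal promoter site at +73.6 kb (chr13:102464441-102464647) had D0 pileups of 11 (WT) and 13 (HY) and no D8 peak, and the next site at +74.0 kb had 12 and 16 at D0 and closed likewise. An opened site followed at +77.9 kb (chr13:102460135-102460448), with D8 pileups of 13 (WT) and 12 (HY).

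The other Pik3r1 site that opened in both genotypes was at +6.4 kb, with 11 and 10 at D8. Closed sites at +28.0, +38.3 and +50.3 kb had between 10 and 18 at D0, the best supported being +38.3 kb with 17 in WT and 18 in HY. Next to it, sites at +39.2 and +39.8 kb were open in all 4 lists with pileups from 12 to 22. At +45.8 kb WT had no D0 peak and 16 at D8, HY had 14 and 27, and the HY ratio was 2.76 (1.4 to 5.7).

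Akt2, the kinase isoform tied to insulin action in fat, lies on chromosome 7 with 16 sites and 15 annotated TSSs. Its 5′-most promoter (chr7:28376364-28377732) went from 36 at D0 to 26 at D8 in WT and from 36 to 27 in HY. After scaling for depth the ratios were 0.896 (0.52 to 1.53) and 1.07 (0.627 to 1.82). The HY summit lay at +0.03 kb at D0 and +0.47 kb at D8, so the HY ratio compares different summits. A promoter site at +14.2 kb was also open throughout at 19, 16, 22 and 17.

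Downstream of these, 3 promoter sites at internal Akt2 TSSs opened in both genotypes. The site at +16.2 kb (chr7:28392578-28393360), on an untranslated exon, had no D0 peak and D8 pileups of 32 (WT) and 38 (HY), the highest of all 18 opened sites. At +15.5 kb the pileups were 14 and 15, and at +36.8 kb 10 and 12. Intronic sites at +33.2 kb (12 and 9) and +33.6 kb (14 and 16) opened as well. Upstream, within 2310022A10Rik, the intronic site at -17.2 kb (15 and 14 at D0) closed in both genotypes.

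Tbc1d4, whose product holds GLUT4 vesicles back until AKT phosphorylates it, lies on chromosome 14 with 24 sites, 18 of them intronic. Sites opened along the body of the gene. The intronic site at +91.2 kb (chr14:101917102-101917418) had no D0 peak and reached 26 at D8 in WT and 22 in HY. Those at +76.7 kb (14 and 20) and +59.9 kb (16 and 21) did the same. One site, +114.8 kb on a coding exon, closed in both genotypes, with low D0 pileups of 7 and 6.

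The Tbc1d4 promoter at +0.3 kb (chr14:102007597-102008589) had 33 and 25 at D0 and D8 in WT, against 47 and 43 in HY. The D8 to D0 ratio was 0.94 in WT (0.536 to 1.63) and 1.31 in HY (0.846 to 2.02), and the WT log2 ratio of -0.09 turned to 0.07 on the centred scale. Both HY values were above both WT values. At D8 the HY to WT ratio was 1.85 (1.1 to 3.16), and at D0 1.33 (0.832 to 2.14). On the centred scale the D8 ratio was 1.66 (0.989 to 2.83) and its interval held 1. At D0 the HY summit lay at 314 bp and the WT summit at 29 bp from the TSS, whereas at D8 they lay at 30 and 80 bp.

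Foxo1, the transcription factor that AKT phosphorylation sends out of the nucleus, lies on chromosome 3 with 7 sites. Its promoter at -0.1 kb (chr3:52071801-52072558) had 30 and 32 in WT and 33 and 34 in HY. The ratios were 1.32 (0.779 to 2.26) and 1.48 (0.887 to 2.46). The strongest distal site, at -10.3 kb between genes (chr3:52061719-52062256), had 24 and 32 in WT and 17 and 34 in HY, with ratios of 1.65 (0.945 to 2.94) and 2.86 (1.56 to 5.47), the latter the largest ratio of the 10 genes in HY. Beside it, -9.6 kb had 13 and 17 in WT, and in HY no D0 peak and 20 at D8. At -25.7 kb D0 pileups were 11 in WT and 20 in HY, and at D8 WT had no peak and HY had 7.

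Slc2a1 encodes the basal glucose transporter and lies on chromosome 4 with 13 sites, 6 of them open in all 4 lists. Its promoter (chr4:118781053-118781947) had the highest WT D0 pileup of the promoters, with 58 at D0 and 43 at D8, against 69 and 57 in HY. The WT ratio was 0.92 (0.605 to 1.39) and the HY ratio 1.18 (0.818 to 1.7), and the log2 ratio of -0.12 in WT turned to 0.04 on the centred scale. The sites at -2.7 kb (35, 30, 49 and 34) and at +12.8 kb in an intron (35, 23, 49 and 35) were likewise open throughout. The intronic site at +17.4 kb had 23 and 11 in WT and 36 and 17 in HY, with ratios of 0.594 (0.261 to 1.27) and 0.676 (0.356 to 1.24).

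Distal Slc2a1 sites moved both ways. The intergenic site at -9.9 kb (chr4:118770943-118771476) opened, with D8 pileups of 13 (WT) and 18 (HY). The site at -41.3 kb (chr4:118739532-118740162), in an intron of Gm12866, closed from 16 in WT and 22 in HY. The site at +38.2 kb had D0 pileups of 26 and 27, no WT peak and a HY pileup of 4 at D8, a HY ratio of 0.212 (0.0539 to 0.609).

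Slc2a4 encodes the insulin-responsive transporter and lies on chromosome 11 on the minus strand in a stretch dense with genes. Of its 14 sites, 8 lay at promoters of other genes, including Eif5a, Gps2, Gabarap and Phf23, and only its own promoter had it as the nearest gene. That promoter (chr11:69761623-69762706) had WT pileups of 33 at D0 and 43 at D8, and HY pileups of 41 and 43. The ratios were 1.62 (1 to 2.63) and 1.5 (0.956 to 2.36), at the edge of counting error. The strongest summit moved towards the TSS in both genotypes, from -0.81 kb at WT D0 to -0.12 kb at WT D8 and from -0.84 kb at HY D0 to -0.02 kb at HY D8.
Slc2a4, the 200 bases upstream of the TSS, minus strand (chr11:69761691-69761890): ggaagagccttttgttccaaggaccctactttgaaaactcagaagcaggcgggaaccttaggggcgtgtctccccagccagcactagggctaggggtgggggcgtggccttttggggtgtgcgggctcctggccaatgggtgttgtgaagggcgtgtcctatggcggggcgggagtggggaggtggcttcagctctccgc
This stretch, shown because the D8 summits lie in it, held no match to the 5 motifs searched.

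The site near Slc2a4 that opened in both genotypes was at +10.5 kb (chr11:69750842-69751317), in an intron of Ybx2, with D8 pileups of 23 (WT) and 31 (HY). The Ybx2 promoter at +12.5 kb had no D0 peak and 31 at D8 in WT, and 13 and 20 in HY. Whether either belongs to Slc2a4 cannot be read from these data. The remaining sites were mostly constitutive, and 10 of the 14 had a peak in all 4 lists.

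The other genes of the pathway were read from a list of 40, which holds further kinases, phosphatases, adaptors, vesicle proteins and transporters. Of these, 23 had at least 1 site that opened in both genotypes and 34 at least 1 that closed in both, where 7 and 8 of the 10 genes did, beside 30.3% and 74.2% of the 27943 genes with any site. Such counts rise with the number of sites near a gene, which was not matched. By site, 8.99% of 601 opened in both and 18% closed in both, between the shares of the 10 genes (12.2% and 16.2%) and those near all genes (6.09% and 23.3%). Hk2, a hexokinase that phosphorylates glucose after uptake, had 5 of 21 sites opened in both genotypes, and Igf2r, which takes up and clears insulin-like growth factor, had 4 of 25. With a summit in the promoter window required in every list, 33 of the 40 genes (82.5%) and 8 of the 10 had promoter peaks in all 4 lists. The share was 32.2% of 33887 annotated genes and 39% of the 27943 genes with any site.

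The next question was whether HY cells differed from WT cells at the same day. At D0, 25 of 115 sites had a peak in HY only, 21.7% (14.6% to 30.4%) beside 20.4% near all genes, and 14 in WT only, 12.2% (6.82% to 19.6%) beside 11.7%. At D8, 19 of 96 were in HY only, 19.8% (12.4% to 29.2%) beside 24.6%, and 9 in WT only, 9.38% (4.38% to 17.1%) beside 9.58%. At this distance of 50 kb each of the 4 intervals held the background share. Sites of 1 genotype were weak, with median pileups of 9 in HY only and 8 in WT only at D0, and 8 and 9 at D8, against 18.5 in WT and 22 in HY at sites of both on either day.

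With only sites whose strongest peak had -log10 q of at least 5, the shares became 12.2% in HY only and 6.67% in WT only at D0, and 3.75% in WT only at D8, beside 10.9%, 6.48% and 6.87%. Within 20 kb of a TSS, 3 of 46 sites were in HY only at D8, 6.52% (1.37% to 17.9%) beside 22.4% near all genes. None of the 15 promoter sites was found in 1 genotype only on either day, and the share over all promoter sites was not computed. Igf1r +0.3 kb, downstream of the promoter window and so not among the 15, had a peak in both HY lists and in neither WT list.

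At sites with a peak in both genotypes the heights were close. At D0, 2 of 76 sites were at least 2-fold higher in HY (2.63% beside 1.96%) and 1 was at least 2-fold lower (1.32% beside 1.26%). At D8, 0 of 68 were at least 2-fold higher and 0 at least 2-fold lower, beside 1.58% and 0.457%, and the exact upper bound of 0 in 68 was 5.28%. The median log2 ratio of HY to WT was 0.08 at D0, equal to 0.08 over all sites near genes, and 0.23 at D8 beside 0.15. The sites in all 4 lists had medians of 0.07 and 0.16, so that the 10 genes centred on these gave 0.00 and 0.08.

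The sites past 2-fold at D0 fell outside the naming rule and were chosen after their values were seen. Slc2a1 -6.3 kb had 10 and 11 at D0 and D8 in WT, against 30 and 18 in HY, and its HY to WT ratio was 2.79 (1.33 to 6.41) at D0 and 1.76 (0.786 to 4.12) at D8. Akt2 -12.9 kb had D0 pileups of 5 and 18, a ratio of 3.35 (1.2 to 11.5), and no D8 peak. Igf1r +200.7 kb had 15 and 8, a ratio of 0.497 (0.182 to 1.25). Irs2 +1.2 kb, in the coding exon and at the promoter of 9530052E02Rik, was singled out in the same way. It had 25 and 22 in WT, 29 at D0 in HY and no peak in the HY D8 list.

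Of the 19 Tbc1d4 sites with a D8 peak in either genotype, 8 were in HY only and 3 in WT only, where the shares near all genes were 24.6% and 9.58%. Most were weak. The best supported HY sites were +81.5 kb with 17 and +22.8 kb with 14, both intronic and found in no other list, and the other 6 in HY had from 6 to 9. In the other direction Tbc1d4 +72.0 kb had 10 in WT D8 alone, Akt2 +62.5 kb had 12, 9 and 12 with no HY D8 peak, and Pik3r1 +48.6 kb had 13, 10 and 15 with no HY D8 peak. At D0 the best supported HY sites without a WT peak were Igf1r +9.3 kb (12), Tbc1d4 +180.2 kb (12) and Insr +32.3 kb (11). In WT, Tbc1d4 +70.1 kb had 13 at D0 and no HY D0 peak, but 7 (WT) and 8 (HY) at D8. All 3 Foxo1 sites that differed at D0 were in WT only, where the shares near all genes were 11.7% in WT only and 20.4% in HY only. They were weak, with WT D0 pileups of 7 at -49.3 kb, 7 at -24.5 kb and 13 at -9.6 kb. The site at -9.6 kb had a HY peak of 20 at D8.

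The response to differentiation was then set side by side in the 2 genotypes. Of the 26 sites that opened in WT, 18 opened in HY, 3 had HY peaks on both days and 5 had none on either. That is 69.2% shared, beside 63.2% near all genes. Of the 33 that opened in HY, 18 opened in WT, 4 had WT peaks on both days, 1 had a D0 peak only and 10 had none, so that 54.5% were shared beside 50.2%. Of the 39 that closed in WT, 24 closed in HY (61.5% beside 59.7%), and of the 47 that closed in HY, 24 closed in WT (51.1% beside 56.5%) and 20 had no WT peak (42.6% beside 37.8%). All of these shares lay near those of all genes. The difference between genotypes in these responses has no test with 1 library each.

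In WT the largest ratio was at Pik3r1 +72.2 kb, an intronic site with 8 and 11, at 1.71 (0.625 to 4.89). Irs2 +42.8 kb, Insr +42.1 kb, Foxo1 -10.3 kb and Igf1r +182.4 kb followed, tied at 1.65. Among the smallest were Akt2 +83.1 kb, at the Map3k10 promoter, in WT (34 and 18, 0.657, 0.349 to 1.2) and Akt2 -48.7 kb, at the Pld3 promoter, in HY (19 and 8, 0.603, 0.228 to 1.44). None of the 3 intervals given in this paragraph was clear of 1.

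The 7 sites at least 2-fold higher at D8 in HY were Foxo1 -10.3 kb, Pik3r1 +45.8 kb, Insr +42.1 kb, Irs2 +42.8 kb, Pik3r1 +39.2 kb (2.27), Slc2a4 +12.5 kb (2.2) and Slc2a1 -31.2 kb (2). In WT, 5 of them had a peak on both days, with ratios from 0.993 at Slc2a1 -31.2 kb to 1.65 at Foxo1 -10.3 kb, Insr +42.1 kb and Irs2 +42.8 kb. At Foxo1 -10.3 kb the D8 pileups were 32 in WT and 34 in HY, while those at D0 were 24 and 17. The WT interval there held 1 (0.945 to 2.94) and was clear of it only on the centred scale (1.05 to 3.28).

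**Figure D4:**
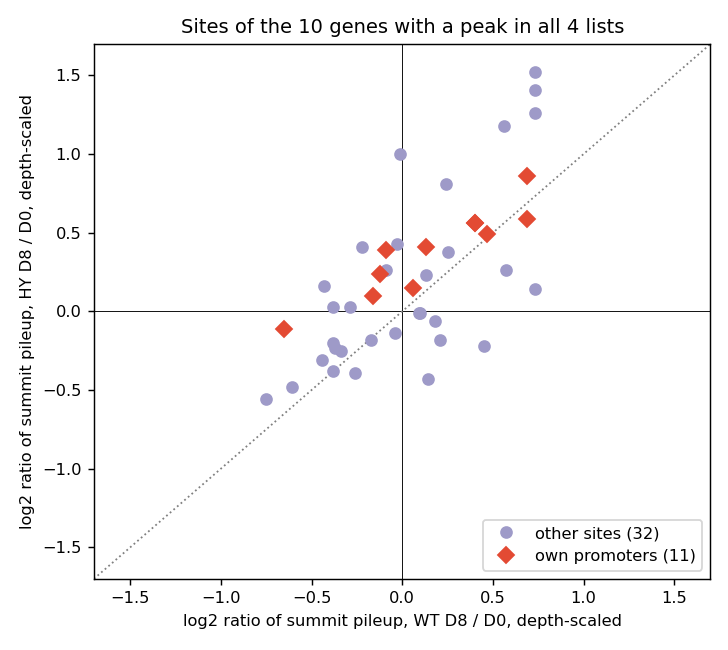
Each point is 1 of the 43 sites with a peak in all 4 lists, placed by the depth-scaled log2 ratio of D8 to D0 summit pileup in WT (horizontal) and in HY (vertical). Diamonds are the 11 promoters and circles the other 32 sites, and the dotted line marks equal ratios. The Irs2 promoter lies at 0.69 and 0.86 and Foxo1 -10.3 kb has the highest vertical value, and the Igf1r promoter, at -0.65 and -0.11, is the lowest diamond.

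Motif matches were counted in the 201 bases around the summits, on both strands, as a description of sequence only. Around the WT D8 summits of the 18 sites that opened in both genotypes, the C/EBP motif TTGCNNAA was found at 5 sites (27.8%), where 26.6% of all sites that opened in both and 13.3% of all WT D8 peaks held it. These were all 3 of Tbc1d4 and Insr +29.5 and +68.1 kb. At the HY D8 summits Insr +68.1 kb held no such match, and Insr +46.8 kb held one. C/EBP proteins are central regulators of fat cell differentiation. The EBF motif CCCNNGGG was found at 4 (22.2%, beside 13.1% and 13.2%), namely Irs2 +17.5 kb, Pik3r1 +6.4 kb, Akt2 +16.2 kb and Akt2 +33.2 kb. The last of these held no match at its HY D8 summit.

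The AP-1 motif TGANTCA was found at 1 of the 18 (5.56%, beside 7.33% and 12.3%), Insr +19.2 kb. The FOXO motif TGTTTAC was found at 0 of 18 (2.85% and 2.2%), and the PPARG:RXR motif, in which a pair of AGGTCA half-sites stand 1 base apart, at 0 of 18 (0.0663% and 0.0292%). Around the WT D0 summits of the 24 closed sites AP-1 was found at 3 (12.5%), below the 31.5% of all sites closed in both and the 22.7% of all WT D0 peaks. These were Irs2 +30.6 kb, Akt2 -17.2 kb and Slc2a1 -41.3 kb. Median GC content was 50% at the opened and 49% at the closed sites of the 10 genes, beside 49.8% and 48.8% of all sites that opened or closed in both and 54.7% and 51.2% of all peaks of those lists.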

How the data were processed

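ATAC-seq was analysed in 4 libraries, 1 per genotype and day. The authors trimmed, filtered and aligned the reads and called peaks on each library, and the submitters' processing notes name Bowtie2, SAMtools, Picard, deepTools and mm9. MACS3 is named for their ChIP-seq, which followed the same procedure. Versions, threshold and Tn5 shift are not given in the sources used here. The deposited enrichment values are the authors' fold ratio of summit pileup over local background, and the authors' peak caller gave -log10 p and -log10 q. The authors' deposited summit offset placed the summits. Absolute depth is unknown.

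A whole-number pileup and a background were solved from fold and p for 100% of peaks (tolerance 0.002), tested on simulated data. Peaks of the 4 lists were merged where they shared at least 1 bp, and a library's value was its highest summit pileup there. Ratios were divided by the ratio of background rates, with exact conditional binomial 95% intervals. The mm9 reference was NCBIM37 with GENCODE annotation (Python 3.11.15, SciPy 1.17.1). With 1 library per group no test was made.

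The members and lists were chosen with earlier results of these data known. Sites named were all promoter sites, the best supported site opened and closed in both genotypes per gene, the 3 best supported sites of 1 genotype per day and direction, the 3 largest and smallest ratios per genotype, and the 3 genes of the pathway list with most sites opened in both genotypes, 1 of which is not reported here. Other sites were named after their values were seen. The 20 peaks in the last 5 kb inside the limit of 50 kb had a median pileup of 18 (6 to 78) and the 27 in the 5 kb outside it a median of 12 (6 to 59). Alternatives covered the q threshold, list length, site definition, coverage, distance and scaling.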

Additional observations from a re-analysis of the deposited data

Results flagged for a closer look

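The number of Pik3r1 sites stood out because the difference between genotypes had opposite signs on the 2 days. HY had 3 more sites than WT at D0 (17 against 14), and the HY minus WT difference was -1 at D8 (10 against 11). At D0, 6 sites were in HY only, 3 in WT only and 11 in both, and at D8 1, 2 and 9. Near all genes, 20.4% were in HY only and 11.7% in WT only at D0, and 24.6% and 9.58% at D8. The difference in sign thus rests on few sites. With 1 library in each group this contrast was not tested. The HY D0 list was the longest of the 4 and had the highest background rate. Whether either had a part in this contrast was not tested.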

How the results depend on the processing

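No paired analysis was possible because each group is 1 library, and no replicate could be left out. Of the shares and medians recomputed under other settings, 43 moved by less than their interval or spread and 9 moved further. For the medians the spread was that among single sites, so that staying within it is a weak check. None of the 12 recomputed medians became negative, and that of HY to WT at D0 fell to 0.00 when centred. With lists of an equal 41228 peaks, the opened share became 40% in WT and 41.2% in HY, and the closed share 14.4% and 15.5%. Requiring -log10 q of at least 5 gave 12.2% in HY only and 6.67% in WT only at D0, and 3.75% in WT only at D8. With 50% coverage 47.4% closed in WT, beside 60.9% near all genes, and within 20 kb 6.52% were in HY only at D8, beside 22.4%. The cause of these moves was not tested, apart from the fewer sites that a stricter threshold or distance leaves by construction. Centring on the sites in all 4 lists changed whether the interval held 1 for 6 of 249 ratios. The lower limit rose to above 1 at the promoters of Slc2a4 in HY (0.956 to 1.01) and Pik3r1 in WT (0.934 to 1.04), at Foxo1 -10.3 kb in WT (0.945 to 1.05) and at Insr +42.1 kb in HY (0.986 to 1.05). For HY to WT at D8 it fell below 1 at the Tbc1d4 promoter (1.1 to 0.989) and Tbc1d4 -31.6 kb (1.01 to 0.909). At the Igf1r promoter, the D8 summit nearest to the D0 summit, compared after seeing the data, gave log2 ratios of -1.03 in WT and -1.11 in HY, where the strongest summits gave -0.65 and -0.11. Depth limits single sites: at Insr +42.1 kb, with pileups of 9 and 12 in WT, the interval of the ratio ran from 0.64 to 4.45, and the pileup of a site without a called peak is unknown.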
